A study of Rattus norvegicus with 6 samples.

Results

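Transforming growth factor β (TGF-β) signalling was examined at the level of its own genes in neonatal rat cardiac fibroblasts (NRCFs), through 10 genes out of the 21857 gene symbols listed for each library. These were 3 ligand genes (Tgfb1, Tgfb2 and Tgfb3), 3 receptor genes (Tgfbr1, Tgfbr2 and Tgfbr3) and 4 genes for latent TGF-β binding proteins (Ltbp1, Ltbp2, Ltbp3 and Ltbp4). The genes were named by symbol, and the family was chosen from the measured difference between the groups, so the values of its 10 members are given as a description and no p-value is attached to any of them. All 10 were listed in each of the 6 libraries and all 10 passed the filter on low counts, which left 12941 genes.

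The cells were primary fibroblasts from the hearts of healthy newborn rats no older than 3 days. The design text names the strain Sprague-Dawley, whereas the sample labels give "Noway". One group of 3 libraries had the genotype label FTO overexpression and stands for cells transfected with a plasmid carrying FTO, an enzyme that takes the m6A methyl mark off RNA. The other 3 libraries were labelled WT and stand for cells given the empty plasmid (Vector). Neither the labels nor the methods say how many animals were pooled, or whether replicates came from separate cultures, so the spread between libraries may be technical.

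TGF-β is made as a precursor that is cut inside the cell, after which the growth factor stays bound to its own propeptide in a latent complex. Latent TGF-β binding proteins tether this complex to the extracellular matrix, from which integrins, proteases and thrombospondin can release the active ligand. The active ligand brings the type II receptor TGFBR2 together with the type I receptor TGFBR1, which phosphorylates SMAD2 and SMAD3. In the heart this pathway is known as a main driver of the conversion of fibroblasts into myofibroblasts and of scar formation.

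Total counts per library ran from 13178952 to 17857999. The spread of counts across genes between a pair of libraries was taken as chi-square per degree of freedom. It was 1.56 to 2.12 within Vector and 3.26 to 8.02 within the FTO label, where replicates 2 and 3 differed most. Levels are given as CPM, the reads of a gene scaled to library size after TMM normalization (trimmed mean of M-values). Fto was at 87.8, 89.6 and 87.4 CPM in the Vector libraries and at 93.2, 90.8 and 92.9 CPM in the libraries labelled FTO. Its log2 fold change was 0.06 (SE 0.0468), and edgeR gave it an adjusted p of 0.239. As a fold, the 95% confidence interval ran from 0.976 to 1.12. The targeted gene therefore showed no detected rise, which is why its libraries are named by their label throughout. The study, in contrast, reports that qRT-PCR bore out the transfection, and its supplement shows FTO protein after transfection. The supplement also states that the plasmid carried rat FTO cDNA. Whether the sequenced cultures were among those checked is not stated, and the cause of this disagreement was not tested. By the quasi-likelihood test of edgeR, 65.9% of the 12941 genes were called at an adjusted p of 0.05 (33.2% above and 32.8% below Vector), and for 70.3% all libraries of one group lay above all libraries of the other.

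The fibroblast identity was checked on 10 markers, all of which were detected in every library, of which 5 were called higher and 5 lower. Their summed level was 41420 to 42000 CPM in Vector against 21580 to 22560 CPM in the libraries labelled FTO. Most of this sum came from Col1a1 (25430 to 26060 against 7834 to 8519 CPM), Col3a1 and Vim, which were lower along with Ddr2 and Tcf21, whereas Dcn (45.3 to 48.4 against 5447 to 5861 CPM), Lum, Pdgfra (168.5 to 178.5 against 874.5 to 1050 CPM), Thy1 and Postn were higher. Of the 10 macrophage markers 9 were lower and 1, Adgre1, was higher, and their summed level was 695 to 715 CPM in Vector against 203 to 228 CPM in the other group. Cardiomyocyte markers summed to 1463 to 1492 CPM in Vector and 2189 to 2224 CPM in the libraries labelled FTO (7 of 8 higher, 1 lower), epicardial markers to 106 to 112 and 332 to 395 CPM (5 of 7 higher, 1 lower). Mural markers summed to 721 to 746 and 701 to 731 CPM (3 of 7 higher, 3 lower), near-equal sums from large moves in opposite directions. Myh11 (309.9 to 323.1 against 24.3 to 30.4 CPM), Notch3 and Cspg4 were lower. Des (83.0 to 91.8 against 454.9 to 501.8 CPM), Abcc9 and Kcnj8 were higher. Endothelial markers summed to 23.5 to 25.2 and 45.3 to 46.7 CPM (3 of 7 higher, 1 lower). T cell and platelet markers summed to 28.1 to 31.2 and 44.0 to 51.4 CPM (2 of 5 higher, 0 lower), nearly all of it from the platelet gene Pf4. In bulk RNA, fewer cells of a type and less RNA per cell cannot be told apart, and the part of these shifts in the values below was not tested.

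The promoters of 5 of the genes are shown first. Those of the 3 ligands are shown because the size of their difference was so unequal. Those of Tgfbr3 and Ltbp1 are shown because these genes were higher where most of the family was lower. Tgfbr2 was higher as well (log2 fold change 0.84), and its window was searched but is not printed. Each window runs from 250 bases before to 50 bases after the start annotated by RefSeq on the rat build GRCr8. It is read 5′ to 3′ on the strand of the gene. Tgfb1 lies at chr1:90324062-90324361 on the plus strand, Tgfb2 at chr13:100792636-100792935 on the minus strand and Tgfb3 at chr6:111456897-111457196 on the minus strand. Tgfbr3 lies at chr14:2634044-2634343 on the plus strand and Ltbp1 at chr6:26177252-26177551 on the minus strand. Capitals mark the matches of the motifs named below.
Tgfb1: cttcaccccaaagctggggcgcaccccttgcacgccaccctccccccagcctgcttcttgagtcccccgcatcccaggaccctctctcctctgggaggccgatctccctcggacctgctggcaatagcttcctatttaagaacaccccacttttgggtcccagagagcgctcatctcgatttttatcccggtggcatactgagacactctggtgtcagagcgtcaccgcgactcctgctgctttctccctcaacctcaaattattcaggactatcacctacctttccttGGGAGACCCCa
Tgfb2: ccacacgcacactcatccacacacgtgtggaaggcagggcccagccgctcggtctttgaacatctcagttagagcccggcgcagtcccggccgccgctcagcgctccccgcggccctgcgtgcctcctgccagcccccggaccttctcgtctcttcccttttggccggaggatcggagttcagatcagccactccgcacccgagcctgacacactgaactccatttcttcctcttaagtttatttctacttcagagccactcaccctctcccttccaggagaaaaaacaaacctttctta
Tgfb3: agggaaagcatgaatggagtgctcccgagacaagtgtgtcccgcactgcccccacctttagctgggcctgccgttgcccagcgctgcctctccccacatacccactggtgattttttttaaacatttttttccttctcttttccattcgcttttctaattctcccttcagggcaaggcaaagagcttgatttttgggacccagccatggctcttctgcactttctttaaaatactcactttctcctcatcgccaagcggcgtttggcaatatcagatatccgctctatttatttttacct
Tgfbr3: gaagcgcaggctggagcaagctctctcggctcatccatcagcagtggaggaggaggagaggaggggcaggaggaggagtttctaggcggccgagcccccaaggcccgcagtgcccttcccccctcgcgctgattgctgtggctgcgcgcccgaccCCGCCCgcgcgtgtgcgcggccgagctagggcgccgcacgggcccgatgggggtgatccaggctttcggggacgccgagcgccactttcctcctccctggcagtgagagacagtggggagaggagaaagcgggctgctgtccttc
Ltbp1: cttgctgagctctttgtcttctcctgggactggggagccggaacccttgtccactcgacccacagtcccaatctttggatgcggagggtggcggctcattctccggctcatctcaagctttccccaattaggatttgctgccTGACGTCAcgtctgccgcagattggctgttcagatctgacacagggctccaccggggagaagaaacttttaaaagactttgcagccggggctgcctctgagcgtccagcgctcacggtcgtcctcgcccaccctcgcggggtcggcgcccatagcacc

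Both strands were searched for 9 motifs. These were the cyclic AMP response element TGACGTCA, the palindromic SMAD-binding element GTCTAGAC, the longer SMAD site AGCCAGACA known as the CAGA box, the AP-1 site TGANTCA, the TEAD site GGAATG, the core GAAANNGAA of the interferon-stimulated response element, the NF-κB site, the TATA box TATAAA and the GC box GGGCGG. In the Tgfb2 and Tgfb3 windows none of the 9 was found. The Tgfb1 window held an NF-κB match that begins at base 40 of the annotated transcript, and such a match was present in 4.18% of all 33469 promoters of the table and in 3 of the 10 members (Tgfb1, Tgfbr1 and Ltbp2). The Ltbp1 window held the cyclic AMP response element 108 bases before the start, a motif present in 1.83% of all promoters and in no other member. GC boxes, which in places overlap the NF-κB match in Tgfbr1, were found in the windows of all 3 receptors and of Ltbp2, Ltbp3 and Ltbp4, against 33.1% of all promoters. These windows were 59.0% (Tgfbr2) to 74.7% (Tgfbr1) G and C, all above the median of 51.7% over the table. The 33.1% was not matched for this, so no excess of GC boxes is read from it. The windows with an NF-κB match were above that median too, at 57.7% (Tgfb1), 74.7% (Tgfbr1) and 63.3% (Ltbp2). As the 4.18% was not matched either, no excess of NF-κB matches is read from it. The Tgfb3 window was also the poorest in G and C of the 10, at 47.7%, against a median of 51.7% over the table. A match describes these letters only, and no binding was measured.

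Compared to the Vector group, all 3 ligand genes were lower in the libraries labelled FTO, and by very different amounts. The largest difference was that of Tgfb3, which encodes the isoform TGF-β3. Tgfb3 was at 934, 916 and 914 CPM in the Vector libraries and at 35.9, 34.5 and 36.3 CPM in the libraries labelled FTO. The groups lay far apart, and the libraries within each group lay close together. The log2 fold change was -4.69 (SE 0.0469, 95% confidence interval -4.79 to -4.59), so that the gene stood at 3.86% of its Vector level. By absolute size this difference ranked 195 among the 12941 genes tested. The lowest library still held 457 reads of Tgfb3, so the gene was measured well above the floor of 3 counts.

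Tgfb2 encodes TGF-β2, the isoform that needs the co-receptor betaglycan for efficient binding to the signalling receptors. It was at 253, 251 and 251 CPM in Vector and at 71.4, 66.0 and 67.9 CPM in the libraries labelled FTO, again without overlap. The log2 fold change was -1.88 (SE 0.0457), or 27.2% of the Vector level.

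Tgfb1 encodes TGF-β1, the isoform most often measured in fibrosis. It was at 105.2, 105.5 and 104.4 CPM in Vector, where the coefficient of variation was 0.580%. At 1438 to 1573 reads per Vector library, counting error alone would give a wider spread, so this closeness is no measure of precision. The same holds for the Vector spread of the sum of Tgfb1 and Tgfb2 and of the ratio of Tgfb1 to Tgfb3 below. In the libraries labelled FTO it was at 72.0, 87.6 and 65.8 CPM, a coefficient of variation of 14.9%, the widest among the 10 genes in either group. Replicate 2 was the highest of these and still lay below each Vector library. The log2 fold change was -0.49 (SE 0.0785), or 71.5% of the Vector level, with a 95% confidence interval of -0.66 to -0.32. TGF-β1 is also made by macrophages, T cells and platelets. Of the macrophage markers 9 of 10 moved in the same direction, from C1qb and C1qc, at no more than 3 counts in each library labelled FTO, to Cd68 (107.2 to 114.1 against 44.9 to 57.2 CPM) and Cd14 (97.5 to 102.1 against 57.2 to 63.0 CPM), which stayed well detected. Adgre1 moved the other way (5.89 to 8.56 against 27.5 to 34.0 CPM), as did the platelet genes Pf4 (27.5 to 30.6 against 39.8 to 47.5 CPM) and Itga2b (0.0671 to 0.623 against 3.37 to 4.19 CPM). The T cell marker Cd3e had 0 counts and Cd3g at most 1 count per library. Their part in the level of Tgfb1 was not tested.

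**Figure D1:**
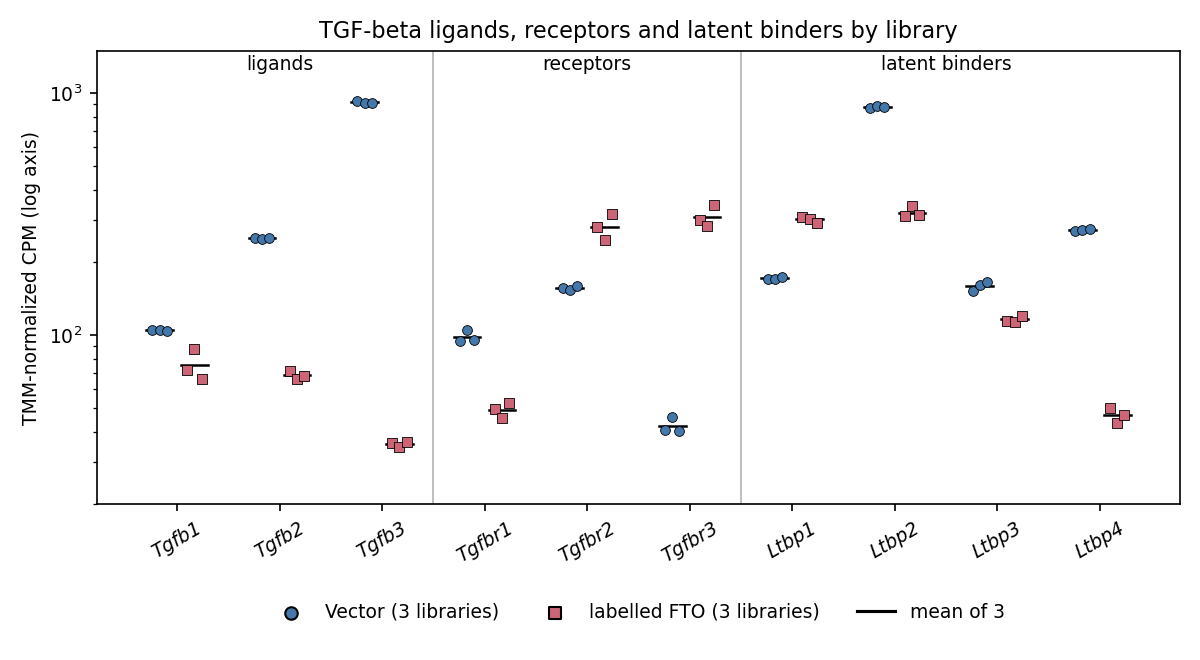
Level of each of the 10 genes in each library, in TMM-normalized CPM on a log axis, with circles for the 3 Vector libraries, squares for the 3 libraries labelled FTO and a line at the mean of 3. Tgfb3 went from 914 to 934 CPM in Vector to between 34.5 and 36.3 CPM, whereas Tgfbr2, Tgfbr3 and Ltbp1 were the 3 genes whose squares lay above their circles.

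The 3 ligands together gave 1292, 1273 and 1270 CPM in Vector and 179, 188 and 170 CPM in the libraries labelled FTO, a sum 7.14-fold higher in Vector. Of the gap between the mean sums, 80.6% was that of Tgfb3, 16.7% that of Tgfb2 and 2.72% that of Tgfb1. Without Tgfb3, the sum of Tgfb1 and Tgfb2 was 357 ± 1.27 CPM in Vector and 144 ± 9.96 CPM in the other group (SD, n = 3), 2.49-fold higher in Vector.

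The make-up of the ligand reads was therefore not the same in the 2 groups. In Vector, Tgfb3 took 72.3%, 72.0% and 72.0% of the ligand reads, Tgfb2 took 19.6%, 19.7% and 19.8%, and Tgfb1 took 8.14%, 8.29% and 8.22%. In the libraries labelled FTO, Tgfb3 took 20.03%, 18.35% and 21.35%, Tgfb2 took 39.8%, 35.1% and 39.9%, and Tgfb1 took 40.1%, 46.6% and 38.7%. The mean share of Tgfb3 was 52.2 percentage points lower (-52.2), while those of Tgfb1 and Tgfb2 were 33.6 and 18.6 points higher although both genes had fewer reads. A share of reads is not a share of molecules, because a longer transcript gives more reads and transcript lengths were not used here.

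The change in the ratio of 2 genes does not depend on their lengths. The ratio of Tgfb1 to Tgfb3 reads moved by 4.20 on the log2 scale, or 18.4-fold, from -3.13 ± 0.0162 to 1.07 ± 0.249 (SD, n = 3). The ratio of Tgfb2 to Tgfb3 moved 7.04-fold and that of Tgfb1 to Tgfb2 2.62-fold, in each case without overlap between the groups.

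**Figure D2:**
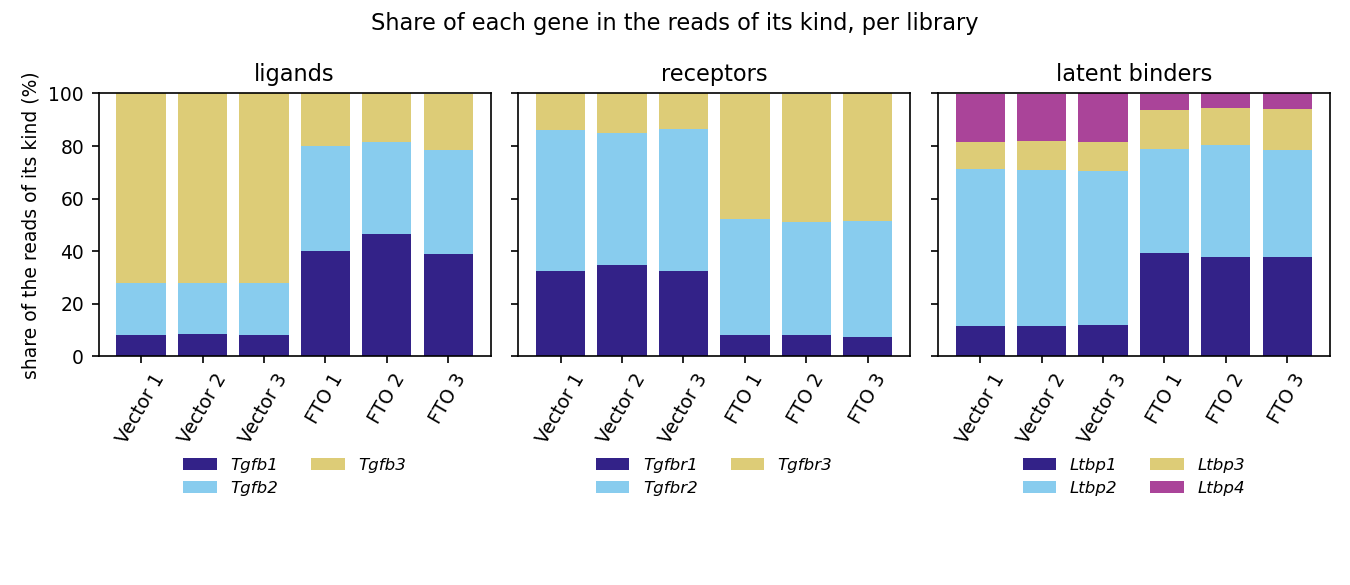
Share of each gene in the reads of its kind (%), 1 stacked bar per library, for ligands, receptors and latent binders. Among the ligands the Vector bars are nearly alike and those of the libraries labelled FTO vary more (Tgfb1 from 38.7% to 46.6%). Among the receptors the Vector bars vary more (Tgfbr2 from 50.35% to 54.05%, against 43.17% to 44.49%). Between the groups Tgfb3 went from about 72.1% to 19.9% of the ligand reads. Tgfbr3 went from 14.2% to 48.3% of the receptor reads and Ltbp1 from 11.6% to 38.3% of the binder reads.

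The receptors did not move together. Tgfbr3, which encodes betaglycan, a co-receptor without kinase activity that presents the ligand and can be shed as a soluble antagonist, was the member with the largest difference upwards. It was at 40.5, 46.1 and 40.2 CPM in Vector and at 298.5, 281.7 and 346.3 CPM in the libraries labelled FTO. The groups were widely separated, and replicate 3 was the highest of its group and replicate 2 the lowest. These libraries also differed most across all genes, as given above. The log2 fold change was 2.87 (SE 0.0770), a 7.31-fold higher level. The summed epicardial, cardiomyocyte, endothelial, and T cell and platelet markers all moved in the same direction, as given above, though not each marker did. Of the 10 fibroblast markers 5 were higher too, among them Pdgfra (168.5 to 178.5 against 874.5 to 1050 CPM), and 5 were lower. Of the mural markers 3 were higher and 3 lower. The part of all these markers was not tested.

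Tgfbr2, the type II receptor that binds the ligand first, was at 157, 154 and 160 CPM in Vector and at 279, 248.5 and 316.5 CPM in the libraries labelled FTO. The log2 fold change was 0.84 (SE 0.0677), and the lowest library labelled FTO lay above the highest Vector library. Tgfbr1, the type I receptor kinase that phosphorylates SMAD2 and SMAD3, was in contrast at 94.4, 105 and 96.1 CPM in Vector and at 49.5, 45.5 and 52.7 CPM in the libraries labelled FTO. Its log2 fold change was -0.999 (SE 0.0643), that is 49.9% of the Vector level.

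Receptor reads summed to 298 ± 6.60 CPM in Vector and 639 ± 70.7 CPM with the FTO label (SD, n = 3). Betaglycan accounted for 14.2% ± 0.822 of them in Vector and 48.3% ± 0.664 in the libraries labelled FTO, and Tgfbr1 for 33.1% ± 1.27 and 7.72% ± 0.310. The ratio of Tgfbr2 to Tgfbr1 reads, the signalling pair, moved 3.57-fold towards Tgfbr2, and the ratio of Tgfbr3 to Tgfbr1 moved 14.6-fold.

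Among the latent binders, Ltbp1 stood apart from the other 3. LTBP1 and LTBP3 are the binders that take up the latent complex of any of the 3 isoforms, LTBP4 is known to bind that of TGF-β1 only weakly, and LTBP2 does not bind latent TGF-β and is placed with elastic and microfibrillar matrix. Ltbp1 was at 170.5, 170.8 and 174.1 CPM in Vector and at 309, 303 and 292 CPM in the libraries labelled FTO, with a log2 fold change of 0.81 (SE 0.0414). Ltbp3 was at 153, 162 and 166 CPM in Vector and at 115, 113 and 121 CPM in the libraries labelled FTO, with a log2 fold change of -0.46 (SE 0.0475), a size whose 95% confidence interval (-0.56 to -0.36) overlaps that of Tgfb1. Neither gene overlapped between the groups.

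Ltbp2, the gene with the most reads of the 4 in Vector, was at 871, 888 and 877 CPM there and at 311, 341 and 314 CPM in the libraries labelled FTO. Its log2 fold change was -1.45 (SE 0.0437). Ltbp4 was at 270, 273 and 275 CPM in Vector and at 50.2, 43.4 and 46.9 CPM in the libraries labelled FTO, a log2 fold change of -2.54 (SE 0.0532) and 17.2% of the Vector level. After Tgfb3 and Tgfbr3, this was the member that differed most in size.

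The 4 binders summed to 1483 ± 16.0 CPM in Vector and 786 ± 13.9 CPM with the FTO label (SD, n = 3). The binders of all isoforms, Ltbp1 and Ltbp3, summed to 332 ± 8.09 and 417 ± 5.74 CPM, which is 126% of the Vector level. The share of Ltbp1 in the binder reads was 11.6%, 11.4% and 11.7% in Vector and 39.3%, 37.8% and 37.8% in the libraries labelled FTO. The ratio of Ltbp1 to Ltbp4 reads moved 10.2-fold, that of Ltbp1 to Ltbp2 4.79-fold and that of Ltbp1 to Ltbp3 2.41-fold.

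Over the family, 7 genes were lower and 3 higher in the libraries labelled FTO. All 10 were called by edgeR at the threshold above, where 65.9% of all genes were called, 33.2% higher and 32.8% lower, and in all 10 the groups did not overlap, where 70.3% of all genes did not. As the members were chosen on this contrast, nothing is read from these counts. The median log2 fold change was -0.74 over the 10 genes and 0.00 over all genes tested. The same choice bears on this median, so nothing is read from it either.

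**Figure D3:**
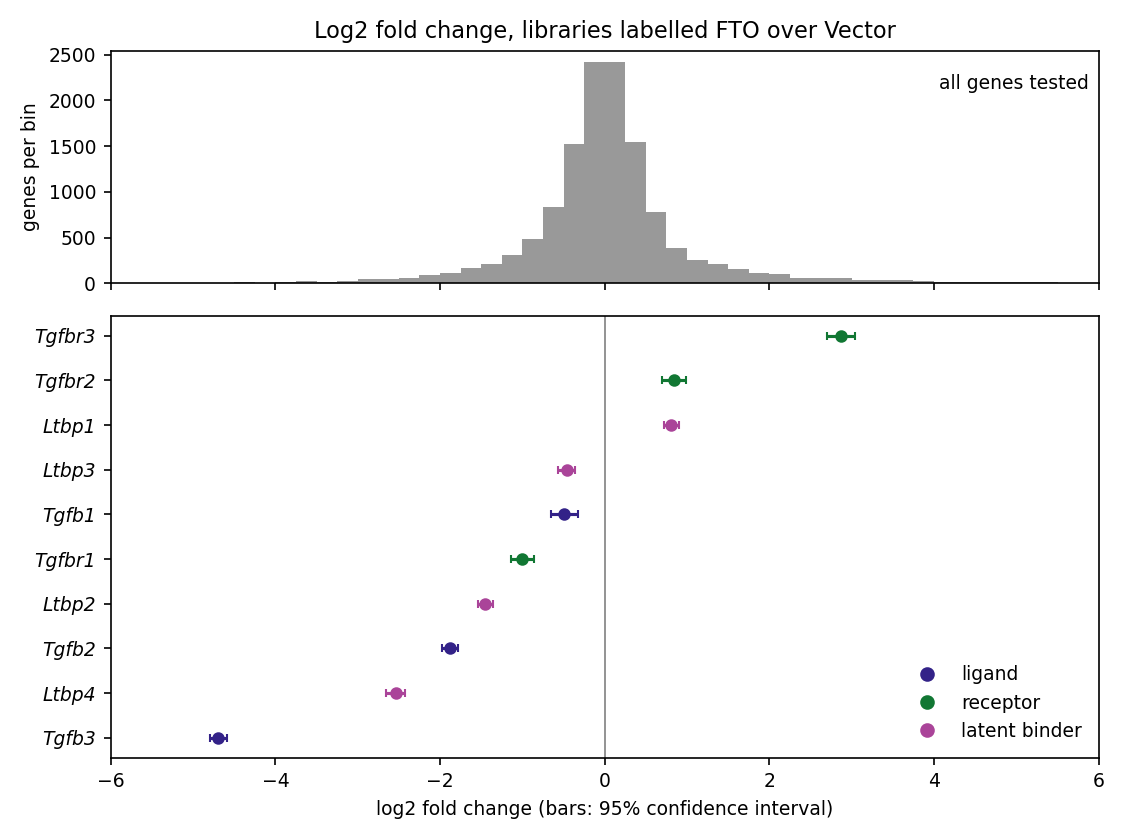
Top, number of genes tested per bin of log2 fold change (libraries labelled FTO over Vector), with the axis ending at 6 in either direction and 105 genes beyond it. Below, the log2 fold change of each of the 10 genes with its 95% confidence interval, from -4.69 (Tgfb3) to 2.87 (Tgfbr3), and only Tgfbr3, Tgfbr2 and Ltbp1 lie to the right of 0.

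The genes whose levels ran most like those of each ligand over the 6 libraries were looked up among 10032 other genes with a mean of at least 100 counts, by the root mean square difference of log2 CPM centred on the mean of each gene. For Tgfb1 these were LOC100360491, RGD1308706 and Ccdc92, at differences of 0.0423, 0.0507 and 0.0544. For Tgfb2 they were Aaed1, Heph and Tbxas1, at 0.0218, 0.0436 and 0.0510. For Tgfb3 the nearest genes were further away, namely C1qc, Actg2 and Piezo2, at 0.111, 0.118 and 0.132. As C1qc was at or under the floor of 3 counts with the FTO label, its distance depends on the 0.5 added before the logarithm. With 6 libraries in 2 groups, such a likeness mostly describes the difference between the groups.

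Other genes of the pathway were then compared, in 4 lists of 50 genes in all, of which 49 were tested. In the edgeR quasi-likelihood test 14 of these were called higher and 30 lower, with a median log2 fold change of -0.45 against 0.00 over all genes. The shares to read these counts against are the 33.2% and 32.8% of all genes called higher and lower.

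Of 15 genes for latency and activation, 5 rose and 7 fell, with a median of -0.06. The largest increases were those of Mmp9 and Mmp2, gelatinases that can release latent TGF-β, at 5.78 (SE 0.250) and 0.94 (SE 0.0409), of Itgb8, an integrin chain that activates it, at 2.42 (SE 0.163), and of Lrrc32, which encodes the membrane anchor GARP, at 0.61 (SE 0.0603). Mmp9 was at 0.671 to 1.11 CPM in Vector, from at most 16 counts per library, so the size of its increase rests on few reads there. The largest decreases were those of Nrros, an anchor of latent TGF-β on macrophages and microglia, at -2.04 (SE 0.157), of the integrin chains Itgb3 and Itgb5 at -1.96 (SE 0.0735) and -1.44 (SE 0.0540), and of the activator thrombospondin 1 (Thbs1) at -1.72 (SE 0.0547). For these 8 genes the adjusted p of edgeR ran from 3.3e-13 (Thbs1) to 3.3e-07 (Lrrc32). Nrros moved with the macrophage markers given above, and their part was not tested. The precursor-cutting protease Furin (0.10, edgeR adjusted p 0.0573), Itgb6 (0.17) and Fn1 (-0.06) did not pass.

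Of 9 co-receptors, binding antagonists and inhibitors tested, 4 rose and 5 fell, with a median of -0.11. Aspn had 0 counts in each library and was not tested. Dcn, which encodes decorin, a matrix proteoglycan that binds TGF-β, rose from 47.0 ± 1.57 to 5611 ± 221 CPM (SD, n = 3). Its log2 fold change was 6.90 (SE 0.0546, edgeR adjusted p 1.2e-19). Acvrl1, the alternative type I receptor ALK1, rose by 1.06 (SE 0.0487), the proteoglycan gene Fmod by 0.75 (SE 0.0639) and the co-receptor endoglin (Eng) by 0.16 (SE 0.0450). Pmepa1, a feedback inhibitor that is itself induced by TGF-β, fell by 1.99 (SE 0.0560), the decoy receptor Bambi by 0.95 (SE 0.114), Bgn by 0.45 (SE 0.0351) and Ldlrad4 by 0.32 (SE 0.103). The fifth decrease, of Fkbp1a at -0.11, lost its call in 8 of 12 alternatives, and that of Ldlrad4 was lost without Vector replicate 2 (edgeR adjusted p 0.0811).

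Of 10 SMAD transducers and their regulators, 2 rose and 6 fell, with a median of -0.31. Smad3, a direct substrate of the type I receptor, rose by 1.37 (SE 0.0505), and the corepressor gene Tgif1 by 1.22 (SE 0.0477). The ubiquitin ligase genes Smurf1 and Smurf2 fell by 0.97 (SE 0.0546) and 0.51 (SE 0.0466), and the SMAD corepressors Ski and Skil by 0.74 (SE 0.0540) and 0.50 (SE 0.0717). Smad2, the other substrate, was at -0.13 (edgeR adjusted p 0.0884), and the common partner Smad4 at -0.08, and neither passed. Zfyve9, at -0.22, lost its call in 5 of 12 alternatives.

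Of 15 genes known to respond to TGF-β in fibroblasts, 3 rose and 12 fell, with a median of -1.64. The largest decreases were those of the smooth muscle genes Tagln, Cnn1 and Acta2, at -3.86 (SE 0.0448), -3.57 (SE 0.0636) and -3.56 (SE 0.0401), and of the matricellular gene Ctgf, at -3.52 (SE 0.0573), with edgeR adjusted p from 2.3e-18 (Acta2) to 3.4e-16 (Cnn1). The 3 that rose were Il11 (0.85, SE 0.268), Junb (0.77, SE 0.0579) and Postn (0.52, SE 0.0452). Il11 was measured from at most 53 counts per library. These lists were drawn up from general knowledge with earlier results of these data known, so their direction is not independent evidence.

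**Figure D4:**
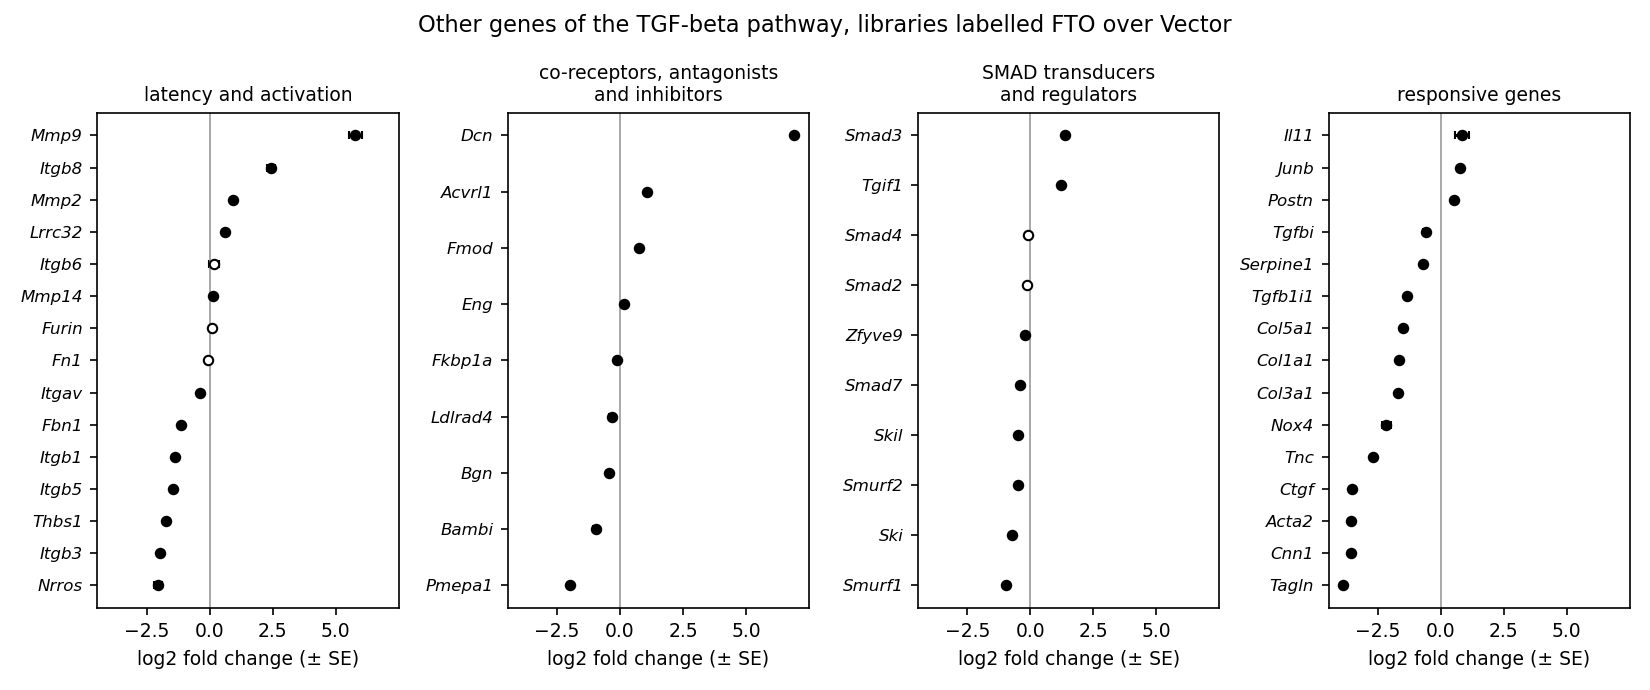
Log2 fold change of 49 other genes of the pathway in 4 lists (libraries labelled FTO over Vector), with bars for the SE, filled points for genes called by edgeR (adjusted p of 0.05) and open points for the 5 that were not. The 15 responsive genes lie mostly to the left of 0, from -3.86 (Tagln) to 0.85 (Il11), while Dcn at 6.90 and Mmp9 at 5.78 lie furthest to the right.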

How the data were processed

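RNA-seq was performed on 6 libraries of NRCFs, 3 per group, grouped by the genotype labels. The authors deposited raw counts per gene symbol, 1 file per library. Trimmomatic and the rat build rn6 are named in the submitters' processing notes, while aligner, counter, gene annotation and strand setting are not given in the sources used here, so reads of antisense transcripts cannot be told apart. Each file listed 21857 symbols. A floor of 3 counts was worth 0.168 to 0.227 CPM, and intervals cover counting error and the spread between libraries only.

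Genes were kept with filterByExpr (minimum count 10), scaled by TMM (factors 0.995 to 1.005) and compared by the two-sided quasi-likelihood test of edgeR 4.0.16 in R 4.3.3, without covariates, with Benjamini-Hochberg adjustment over all 12941 genes. Each SE is the absolute log2 fold change over the square root of F. The procedure was run on simulated counts in which few genes were changed, evenly up and down. In the data 65.9% of genes were called, so that run does not check the calls made here. The study's methods give a threshold but no test for RNA-seq. The members and lists were chosen with earlier results of these data known. Named genes were the 10 members, Fto, per list up to 4 called genes in each direction with the largest change, and per ligand the 3 nearest genes; others were named after their values were seen. Promoters were matched by symbol for all 10 members in a RefSeq table (GRCr8), whose coordinates are not those of rn6. Planned shares per transcript length were not computed, as no transcript lengths were used here, and shares of reads stand in their place. Alternatives were DESeq2 1.42.0, other scalings and filters, the replicate number as a block, and leaving out each library.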

Additional observations from a re-analysis of the deposited data

How the results depend on the processing

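The 10 members kept their direction under each of their 12 alternatives, and in all 120 values the log2 fold change moved by less than the spread between replicates. This yardstick was a weak one. Leaving out 1 of 3 libraries moves a group mean by less than the spread of that group, and TMM factors near 1 left little for other scalings to change. Nothing is therefore read from the 120 values as a count. The log2 fold change ran from -0.61 to -0.40 for Tgfb1 and from -4.71 to -4.67 for Tgfb3. The number of genes called ran from 7795 (DESeq2) to 9009 (no filter on low counts) and that of the 49 pathway genes from 42 to 45, against 8531 and 44. Fto stayed without a detected difference, with log2 fold changes of 0.05 to 0.08 and adjusted p-values of 0.182 to 0.450. The share of Tgfb3 in the ligand reads differed by -52.9 to -51.4 percentage points when single libraries were left out.

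Among the pathway genes, 569 of 588 values kept their call and none changed sign. Calls were lost for Fkbp1a (8 alternatives, adjusted p-values 0.00343 to 0.115), Zfyve9 (5, 0.0257 to 0.148) and Ldlrad4 (1, 0.00188 to 0.0811), and gained for Furin (2, 0.0259 to 0.255), Smad2 (2, 0.0386 to 0.258) and Fn1 (1, 0.0104 to 0.536). The cause was not tested. The deviations of same-numbered libraries from their group means correlated across genes at 0.00221, -0.0790 and 0.0377, against -0.117 to 0.111 for different numbers. Replicate numbers thus gave no sign of pairing, but with 3 libraries per group this cannot exclude it. With the replicate block, 8399 genes and 42 pathway genes were called. Shares per transcript length were not run. Depth did not limit the members, which had at least 457 reads in each library.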
